A study of Mus musculus with 160 samples.

Results

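The genes described here belong to 1 functional group, the receptors Ffar1, Ffar2, Ffar4, Hcar1, Hcar2, Sucnr1 and Gpr84, through which cells sense fatty acids and other small metabolites. They were taken by name and make up 7 of the 56980 genes in the deposited tables. The set was chosen by name with a measured value in view, the near absence of Ffar1 counts in subcutaneous fat of DBA/2J mice. For that reason the levels of the 7 genes by strain in subcutaneous fat are given as values, with no test.

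All 7 encode G protein-coupled receptors of the cell surface. Ffar1 and Ffar4 bind long-chain fatty acids, Ffar2 binds short-chain fatty acids made largely by gut bacteria, and Gpr84 binds medium-chain fatty acids. Hcar1 is the receptor for lactate and Hcar2 that for the ketone body beta-hydroxybutyrate and for niacin, and both act through inhibitory G proteins to restrain lipolysis in adipocytes. Sucnr1 binds succinate, an intermediate of the citric acid cycle that cells release under stress. Ffar1 is best known from the beta cells of the pancreatic islet, Ffar4 from adipocytes, the gut and macrophages, and Gpr84 from macrophages and neutrophils.

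RNA was sequenced from male mice of the inbred strains A/J, C57BL/6J, DBA/2J and SJL. They ate chow until 12 weeks of age and then, for 6 weeks, a mouse version of a Mediterranean, vegetarian, vegan or American human diet, all with equal energy and macronutrients per the labels but with different food sources. Tissues were taken at 18 weeks, and 128 libraries of liver, brown fat, visceral fat and subcutaneous fat were used, 32 per tissue, 8 per strain and 8 per diet in each, with 2 mice in each combination of strain and diet. The American diet served as the reference for the other diets, and each strain was set against the mean of the other 3.

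Library totals ran from 18.6 M to 29.9 M counts in liver, 18.0 M to 28.3 M in brown fat, 20.5 M to 54.8 M in visceral fat and 18.9 M to 38.7 M in subcutaneous fat. Each tissue held its defining genes, among them Ucp1, the uncoupling protein of brown adipocytes, at 7003 ± 1936 CPM in brown fat (SD, n = 32), where CPM stands for counts-per-million. Some fat libraries held liver transcripts, of their own or another strain, above 10% of the liver level. Others lacked the homeobox or mesothelial gene of their depot. Together they numbered 5 of 32 in brown fat, 14 of 32 in visceral fat and 5 of 32 in subcutaneous fat. These are called doubtful libraries below, and values without them are given where they matter. Liver genes of another strain averaged under 1 CPM in liver of the library's own strain. In visceral fat they reached 58.4% of the DBA/2J liver level in C57BL/6J mouse 16 and 57.7% of the C57BL/6J level in SJL mouse 49. How they came there was not tested. Among brown fat libraries 3 stood apart in Cd79a, a component of the B cell receptor, and all came from the American diet. They were mouse 33 of DBA/2J at 18.8 CPM, mouse 1 of C57BL/6J at 12.9 CPM and mouse 50 of SJL at 6.45 CPM. The tissues were sampled whole, so a smaller number of cells of a type and less RNA per cell cannot be told apart.

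The 7 receptors divided by tissue. Ffar2, Hcar1 and Hcar2 were genes of visceral and subcutaneous fat, Ffar4 was highest in brown fat, Sucnr1 was high in both liver and white fat, Gpr84 was highest in liver, and Ffar1 was measured in subcutaneous fat and hardly anywhere else. On the scale of transcripts-per-million (TPM), which allows for gene length, Ffar2 averaged 0.252 ± 0.200 in liver, 3.91 ± 2.11 in brown fat, 69.3 ± 21.4 in visceral fat and 85.5 ± 33.2 in subcutaneous fat (SD, n = 32 each, as for the next values). Hcar1 averaged 0.103 ± 0.0907 TPM in liver, 22.4 ± 13.8 in brown fat, 84.2 ± 38.3 in visceral fat and 73.3 ± 30.6 in subcutaneous fat. Hcar2 averaged 0.525 ± 0.240 TPM in liver, 7.37 ± 4.51 in brown fat, 33.8 ± 13.0 in visceral fat and 38.5 ± 15.1 in subcutaneous fat. These 3 genes thus had the same order of tissues, apart from the closeness of the 2 white depots. For Ffar2 and Hcar2 the visceral and subcutaneous levels did not differ beyond their spread, with log2 differences of -0.08 and -0.01 (adjusted p = 0.486 and 0.923, edgeR's quasi-likelihood test).

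Ffar4 averaged 0.677 ± 0.524 TPM in liver, 46.3 ± 42.1 in brown fat, 30.1 ± 12.6 in visceral fat and 24.3 ± 6.62 in subcutaneous fat, and its brown fat range of 4.54 to 217 TPM was the widest of the 4 tissues. Sucnr1 averaged 69.2 ± 34.6 TPM in liver, 7.99 ± 5.27 in brown fat, 99.9 ± 39.3 in visceral fat and 59.9 ± 33.2 in subcutaneous fat. Gpr84 averaged 1.28 ± 0.572 TPM in liver, 0.0389 ± 0.0760 in brown fat, 0.311 ± 0.181 in visceral fat and 0.287 ± 0.273 in subcutaneous fat. Sucnr1 was therefore the only 1 of the 7 with a mean over 2 TPM in liver, while Gpr84 stayed low even there. Ffar1 averaged 0.0144 ± 0.0190 TPM in liver, 0.0732 ± 0.190 in brown fat, 0.278 ± 0.993 in visceral fat and 5.49 ± 4.57 in subcutaneous fat. No Ffar1 count was recorded in 17 liver, 16 brown, 5 visceral and 1 subcutaneous library.

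**Figure D1:**
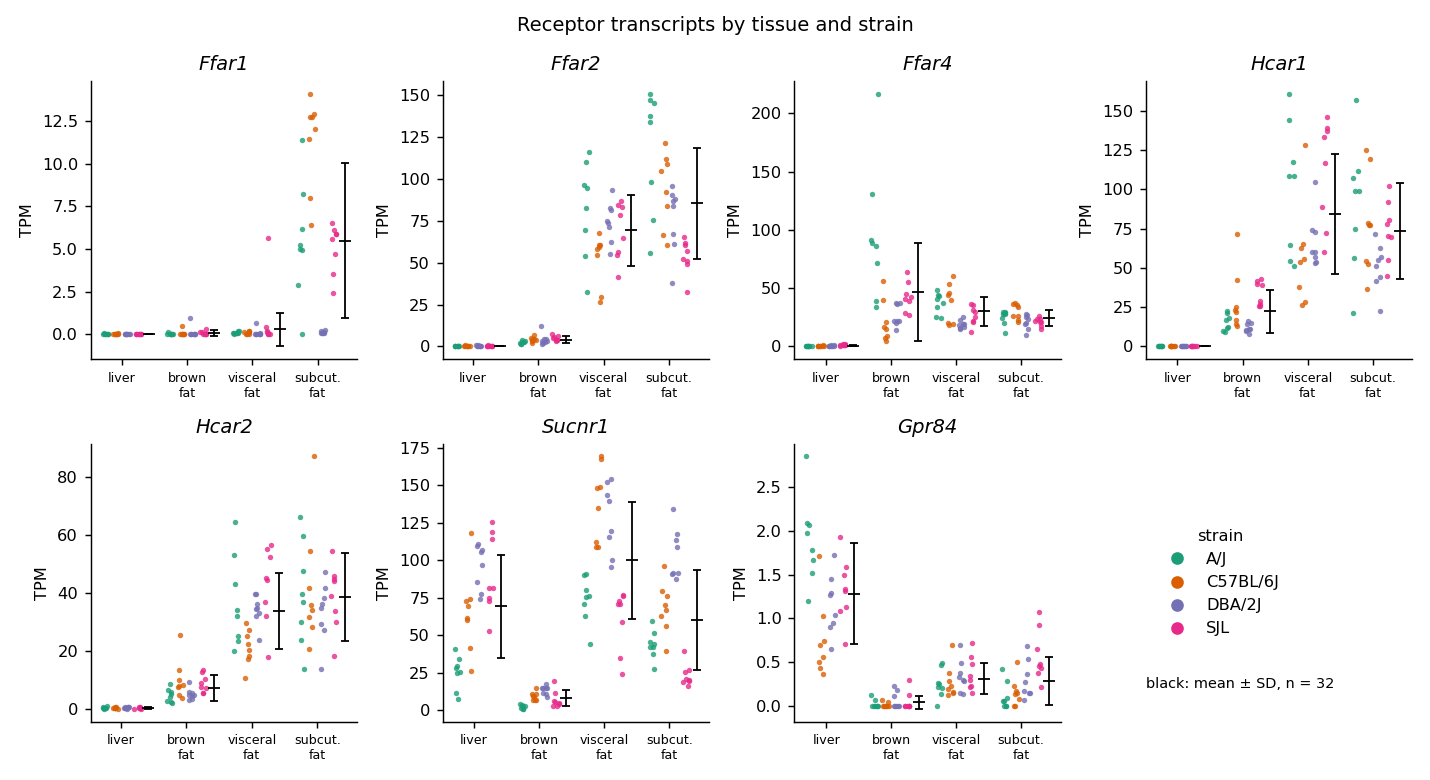
Level of each receptor in TPM in liver, brown, visceral and subcutaneous fat, 1 point per library coloured by strain, with the mean and SD of the 32 libraries in black. Ffar1 stands near its floor outside subcutaneous fat, where the DBA/2J points lie far below the other strains, and Sucnr1 is the receptor with a high level in liver.

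The tissue pairs were tested on counts with strain and diet in the model, and most genes of the genome differ between tissues. Liver against subcutaneous fat had 6 of 6 tested receptors called at adjusted p under 0.05, where 90.6% of all genes were called. Liver against visceral fat and against brown fat had 6 of 6 called in each, where 89% of all genes were called in both pairs. Brown against subcutaneous fat had 6 of 6 called, against 84% of all genes, and brown against visceral fat 5 of 5, against 83%. Visceral against subcutaneous fat had 4 of 6 called, against 71.5%. Since most genes were called, these counts alone do not set the receptors apart. Ffar1 is counted as called in brown and in visceral against subcutaneous fat. It passed the filter mainly through subcutaneous fat, whose Ffar1 values were in view when the set was chosen. Those calls of Ffar1 therefore carry no weight as tests.

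The direction and size of the differences set the receptors apart from each other. Brown against subcutaneous fat, Ffar4 had a log2 difference of 1.67 and was the 1 receptor that was higher. Ffar2 (-3.41), Sucnr1 (-1.94), Hcar2 (-1.39) and Hcar1 (-0.75) were lower in brown fat, as was Ffar1 (-4.76), given as a value only. Brown against visceral fat gave the same directions for the 5 tested receptors, Ffar4 at 1.23 and Ffar2, Sucnr1, Hcar2 and Hcar1 at -3.34, -2.98, -1.39 and -1.14. In visceral against subcutaneous fat Sucnr1 differed by 1.04, Ffar4 by 0.46 and Hcar1 by 0.38. The Ffar1 difference there was -4.32, also given as a value only. In liver against subcutaneous fat Hcar1, Ffar2, Hcar2 and Ffar4 were lower by log2 differences of -8.09, -7.06, -4.79 and -4.00, while Gpr84 and Sucnr1 were higher by 3.51 and 1.56. Scaling matters for these pairs. With limma on log2(TPM + 1) the median of all genes lay at -1.19 for liver against subcutaneous fat, -0.98 for liver against visceral fat, -0.37 for liver against brown fat, -0.82 for brown against subcutaneous fat and -0.71 for brown against visceral fat. On that scale Hcar1, Hcar2 and Ffar4 in brown against subcutaneous fat had differences of -1.74, -2.29 and 0.53, which relative to the median gene are -0.92, -1.47 and 1.35. Sucnr1 in liver against visceral fat had a log2 difference of 0.58 by edgeR but of -0.65 by limma, which is 0.33 above the median gene. By limma 4 further calls were lost, Ffar4 in brown against visceral fat (0.29, adjusted p = 0.125), Sucnr1 in liver against subcutaneous fat (0.19, 0.290), and Ffar4 (0.24, 0.0517) and Hcar1 (0.18, 0.307) in visceral against subcutaneous fat.

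Ffar1 (ENSMUSG00000044453) lies on chromosome 7 of GRCm39 at 30556815 to 30560989, on the minus strand, in 1 exonic block, of which 264 bases are shared with Gm72789 on the other strand. Whether the counting used strand is not given in the sources used here, so for this and the other overlaps named below reads of the partners may not be told apart. It sits in a cluster with Ffar2 and with Ffar3, another receptor for short-chain fatty acids, which ends 1189 bases before Ffar1 begins. On the other side, 3837 bases away, lies Cd22, which encodes an inhibitory lectin of B cells and is transcribed in the same direction. Cd22 shares exonic bases with Gm72789 and Gm29439 on the other strand, at most 479 with either. Of its 128 values 66 were fractional, so its level and the ratios to it below are less certain. The bases just before the annotated start of Ffar1, where its promoter lies, are printed from the RefSeq promoter table, whose window was placed on GRCm39 by exact match. They are the genome reference, which is C57BL/6J, since the strains' own sequences were not used here.
Ffar1, chr7:30560990-30561145, minus strand: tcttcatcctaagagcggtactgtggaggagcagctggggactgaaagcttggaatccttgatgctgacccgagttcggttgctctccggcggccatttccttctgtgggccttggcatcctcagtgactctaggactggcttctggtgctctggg

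In subcutaneous fat Ffar1 was near absent in DBA/2J mice and present in the other strains. The 8 DBA/2J libraries had 2, 2, 3, 4, 4, 5, 8 and 9 counts, a level of 0.185 ± 0.102 CPM. C57BL/6J libraries had 215 to 550.5 counts with a median of 489.2 (16.3 ± 3.67 CPM), SJL libraries 114 to 259 with a median of 216.2 (8.06 ± 1.98 CPM), and A/J libraries 0 to 392 with a median of 195.8 (7.90 ± 4.61 CPM). The DBA/2J range did not overlap with those of C57BL/6J and SJL, and overlapped with A/J through a single library, that of A/J mouse 24, which had 0 counts. That library was among the doubtful ones, since its level of Hoxc10, which marks fat of the hind body, was under 10% of the depot median, and it had 2 counts of Cd22. These values chose the gene and are not tested.

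Levels of B cell transcripts are set beside those of Ffar1. The summed level of 9 B cell markers in subcutaneous fat was 363 to 822 CPM in DBA/2J mice with a median of 506, against medians of 681 in A/J, 1315 in C57BL/6J and 1101 in SJL mice, and none of the 9 was at 0 in every library. Cd22 itself was at 41.2 to 91.1 CPM in DBA/2J libraries, or 971 to 2747 counts, and at medians of 97.4 CPM in A/J, 194 in C57BL/6J and 140 in SJL. The part of B cell RNA in the Ffar1 values was not tested. Per 100 counts of Cd22, DBA/2J subcutaneous fat had 0.149 to 0.602 counts of Ffar1, with a median of 0.260. The same ratio was 7.95 to 10.1 in C57BL/6J, 4.62 to 7.49 in SJL, and 6.61 to 8.80 in A/J without mouse 24. Ffar1 was therefore low in DBA/2J also relative to its B cell neighbour, with 37 counts of Ffar1 beside 12552.5 of Cd22 over the 8 libraries. Of 12 markers of islet and pancreas, the tissue in which Ffar1 is best known, 1 exceeded a mean of 1 CPM in subcutaneous fat, and Iapp and Amy2a5 were at 0 in every library. Their sum was 53.6 to 111 CPM in DBA/2J, with a median of 61.9, against medians of 30.2 in A/J, 22.9 in C57BL/6J and 14.8 in SJL, and its part was not tested.

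**Figure D2:**
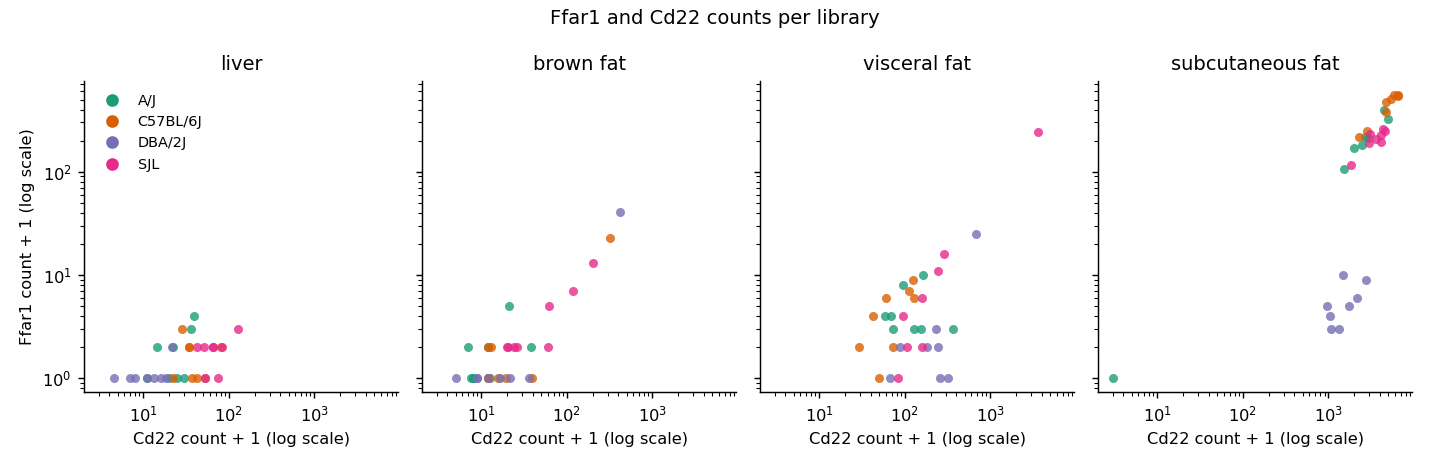
Ffar1 counts against Cd22 counts (both + 1, log axes) in liver, brown, visceral and subcutaneous fat, 1 point per library coloured by strain. Ffar1 follows Cd22 in A/J, C57BL/6J and SJL subcutaneous fat, while the 8 DBA/2J subcutaneous libraries hold 2 to 9 Ffar1 counts beside 971 to 2747 of Cd22, and the brown fat library of DBA/2J mouse 33 lies with the other strains.

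Outside subcutaneous fat 7 libraries held at least 10 counts of Ffar1, beside 201.5 to 3621.5 counts of Cd22. The highest was the visceral library of SJL mouse 50, with 241.5 counts of Ffar1 and 3621.5 of Cd22, a doubtful library that lacked Wt1, a gene of the mesothelium covering visceral fat. Visceral fat of SJL mice 64 and 54 had 15 and 10 counts, and brown fat of C57BL/6J mouse 1 and SJL mouse 50 had 22 and 12. In these 5 libraries Ffar1 had 4.10 to 6.93 counts per 100 of Cd22.

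The remaining 2 were labelled DBA/2J and went against the subcutaneous values. The brown fat library labelled DBA/2J mouse 33 had 40 counts of Ffar1 beside 413 of Cd22, a ratio of 9.69, while the other 7 DBA/2J brown libraries had 0 counts of Ffar1. In the same mouse the ratio was 0.291 in subcutaneous fat (8 counts of Ffar1), and visceral fat had 0 counts beside 253.5 of Cd22. The visceral library labelled DBA/2J mouse 34 had 24 counts of Ffar1 beside 670 of Cd22, a ratio of 3.58, where the other 7 DBA/2J visceral libraries had 0 to 2 counts. Both libraries also had the highest counts of Klrd1 among DBA/2J libraries of their depot. This gene encodes the CD94 chain of natural killer cell receptors, which DBA/2J mice are known to lack, and was looked at after its values were seen. Klrd1 had 36 counts in brown fat labelled DBA/2J mouse 33 against 0 to 9 in the other 7, and 42 in visceral fat labelled DBA/2J mouse 34 against 4 to 13 in the other 7. Per 100 counts of Cd22 the visceral library had 6.27 counts of Klrd1, where DBA/2J mice 45 and 42 had 6.11 and 5.58. The brown library had 8.72, where mice 38, 43 and 45 had 12.9, 14.6 and 81.8 on 11 to 20.5 counts of Cd22. Brown fat of DBA/2J mice 34, 39, 42 and 48 had 0, on 4 to 35.5 counts of Cd22, so these brown ratios rest on few counts. Among DBA/2J libraries with at least 100 counts of Cd22 the ratio was 1.55 to 2.57 in subcutaneous and 2.18 to 6.27 in visceral fat. Whether these 2 libraries hold RNA of another strain was not tested.

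Klrd1 was also the gene whose level was most like that of Ffar1 over the 32 subcutaneous libraries, with Pearson's r = 0.972 and Spearman's rho = 0.812 among 17613 genes compared on a log2 scale, and r = 0.968 without the 2 libraries farthest from the median. The correlation was 0.908 without the DBA/2J libraries and 0.926 within strains. Both values include the doubtful library of A/J mouse 24, with 0 counts of Ffar1 and 16 of Klrd1, and its weight in them was not tested. Next came Tlr1 (r = 0.954), a receptor for bacterial lipopeptides, and Itgae (r = 0.951), an integrin of tissue lymphocytes and dendritic cells. Klrd1 had 22 to 43 counts in DBA/2J subcutaneous fat, against 166 to 497.5 in C57BL/6J, 215 to 549 in SJL and 16 to 339 in A/J. The libraries differ in strain, depth and cell mixture, and these enter every gene of a library at once, so the correlations given here and below describe likeness only.

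For the strain tests, liver, brown and visceral fat were used. Over strains 4 of 6 tested receptors were called in liver, where 53% of all genes were called, 5 of 6 in brown fat, where 56.8% were called, and 5 of 7 in visceral fat, where 40.1% were called. Ffar1 was too low to be tested in liver and Gpr84 in brown fat. The 5 in visceral fat, and the 4 given below for SJL there, include Ffar1. As described further below, it passed the filter mainly through SJL, and its call rested on SJL mouse 50. Not called were Hcar1 and Hcar2 in liver, Ffar1 in brown fat, and Ffar2 (adjusted p = 0.0793) and Gpr84 (0.534) in visceral fat. Reads of strains other than C57BL/6J were aligned with a relaxed mismatch penalty, so a strain comparison is at the same time a comparison of aligner settings. The plot of strain differences shows that Sucnr1 is the receptor called in most contrasts, 10 of the 12 formed by 4 strains and 3 tissues, whose background follows. In liver 3 of 6 receptors were called in A/J (28.5% of all genes), 1 in C57BL/6J (26.7%), 2 in DBA/2J (26.1%) and 2 in SJL (30.1%). In brown fat 3 of 6 were called in A/J (35.8% of all genes), 4 in C57BL/6J (26.2%), 3 in DBA/2J (34.8%) and 1 in SJL (23.9%). In visceral fat 2 of 7 were called in A/J (13.4% of all genes), 3 in C57BL/6J (12.5%), 3 in DBA/2J (29.2%) and 4 in SJL (17.6%).

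**Figure D3:**
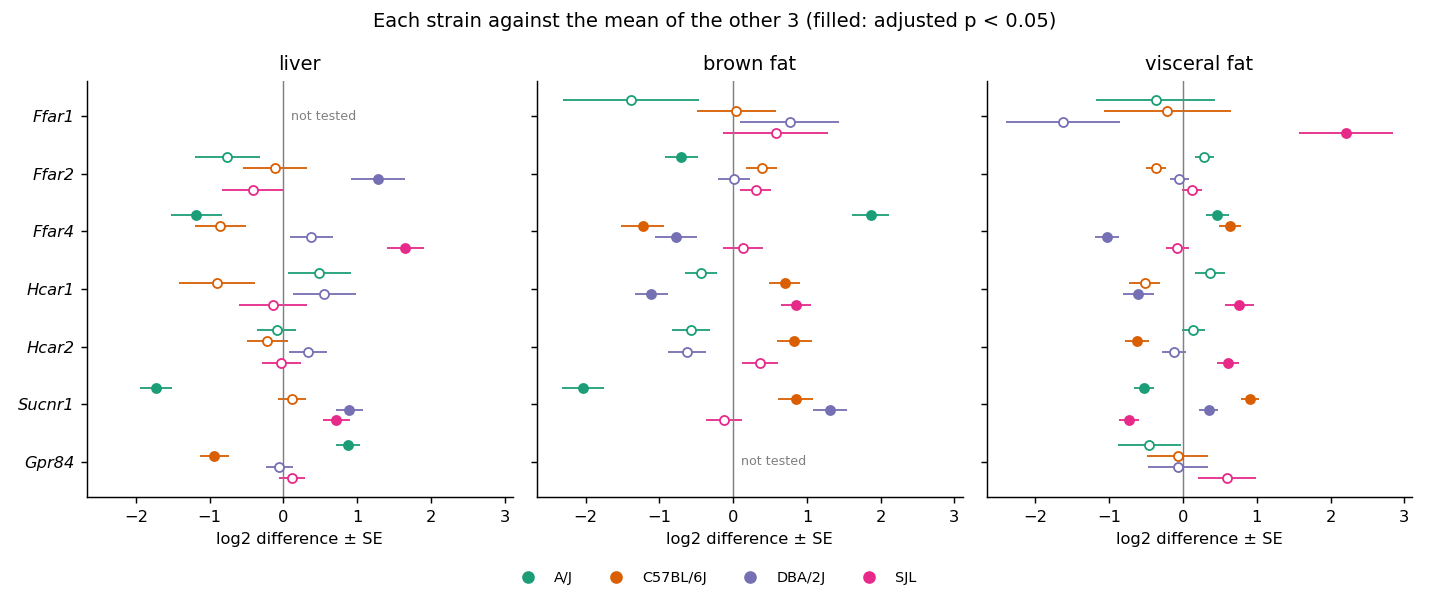
Log2 difference of each strain from the mean of the other 3, with its SE, for each receptor in liver, brown and visceral fat (edgeR), filled where adjusted p is under 0.05. Ffar4 of A/J mice lies at 1.87 in brown fat and at -1.18 in liver, and Sucnr1 of A/J mice lies below 0 in all 3 tissues.

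Sucnr1 (ENSMUSG00000027762, chromosome 3, 59989283 to 59994987, plus strand) was called in 3 of the 4 strains in liver. A/J livers had 4.99 to 28.9 CPM with a median of 19.8, against medians of 48.8 in C57BL/6J, 68.2 in DBA/2J and 62.7 in SJL livers. The A/J range overlapped with that of C57BL/6J, which began at 23.9 CPM, and not with those of DBA/2J and SJL, which began at 59.8 and 31.8. Relative to the other strains the log2 difference was -1.73 ± 0.21 in A/J (SE, adjusted p = 3.11e-07), 0.89 ± 0.18 in DBA/2J (adjusted p = 0.000384) and 0.72 ± 0.18 in SJL (adjusted p = 0.00336). Macrophages and stellate cells are among the liver cells in which Sucnr1 has been studied. The sum of 14 macrophage markers had medians of 480 CPM in A/J, 509 in C57BL/6J, 475 in DBA/2J and 634 in SJL livers, and that of 8 stellate cell markers 267, 251, 279 and 314 CPM. Their part in the result was not tested.

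Sucnr1 kept this order of A/J and DBA/2J in fat. In brown fat A/J had 0.441 to 2.94 CPM with a median of 1.81, against 7.23 to 11.2 in DBA/2J, 5.02 to 11.6 in C57BL/6J and 1.94 to 13.3 in SJL, so that A/J did not overlap with DBA/2J or C57BL/6J. The SJL value of 13.3 came from mouse 57, a doubtful library with liver transcripts. The log2 differences there were -2.04 ± 0.28 in A/J (adjusted p = 2.37e-06), 1.32 ± 0.23 in DBA/2J (4.45e-05) and 0.85 ± 0.24 in C57BL/6J (0.00766). In visceral fat C57BL/6J stood first, with 69.0 to 98.5 CPM, and A/J and SJL last, with 31.2 to 52.5 and 13.2 to 47.8 CPM. The SJL value of 13.2 came from mouse 50, the doubtful library without Wt1, and the next was 31.8. There the log2 differences were 0.91 ± 0.12 in C57BL/6J (4.43e-06), -0.73 ± 0.13 in SJL (0.000273), -0.53 ± 0.13 in A/J (0.00759) and 0.35 ± 0.13 in DBA/2J (0.0385). The A/J call was lost with limma (-0.45, adjusted p up to 0.0939). The DBA/2J call missed the threshold without any 1 of 8 libraries, A/J mice 22 and 24 and DBA/2J mice 33, 40, 42, 43, 45 and 48, with no filter, with the 16 combinations of strain and diet averaged, and without the doubtful libraries (0.24, adjusted p = 0.128).
In subcutaneous fat, given as values, Sucnr1 was at 63.5 ± 10.3 CPM in DBA/2J, 38.9 ± 10.5 in C57BL/6J, 25.1 ± 5.71 in A/J and, in SJL, 10.7 to 29.3 with a median of 12.8. The SJL value of 29.3 came from mouse 64, a doubtful library with liver transcripts. DBA/2J was thus at or near the top in liver, brown and subcutaneous fat, while SJL was high in liver and low in the white depots. The genes most like Sucnr1 over the 32 visceral libraries were Plac9 (r = 0.899), Sfr1 (0.866) and Sertm2 (0.864), which fell to 0.601, 0.603 and 0.544 within strains.

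The bases before the Sucnr1 start are shown because this receptor was called in the most contrasts. The capitals mark its match to the octamer ATGCAAAT, a site of POU domain factors, which 1.60% of 32851 windows of 250 bases before a start hold on either strand. The other motifs searched, the nuclear receptor half-site AGGTCA (14.0% of windows) and the C/EBP site TTGCNNAA (9.56%), were not found in the windows of Sucnr1, Ffar1, Ffar4 or Hcar1. Of the 7 receptors 6 had an entry in the promoter table. A match says nothing on whether a factor binds there.
Sucnr1, chr3:59989040-59989282, plus strand: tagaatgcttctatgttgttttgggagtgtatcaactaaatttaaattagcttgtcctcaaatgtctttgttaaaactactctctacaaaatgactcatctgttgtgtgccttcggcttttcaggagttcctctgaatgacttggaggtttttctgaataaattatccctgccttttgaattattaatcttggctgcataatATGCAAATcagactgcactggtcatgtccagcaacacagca

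**Figure D4:**
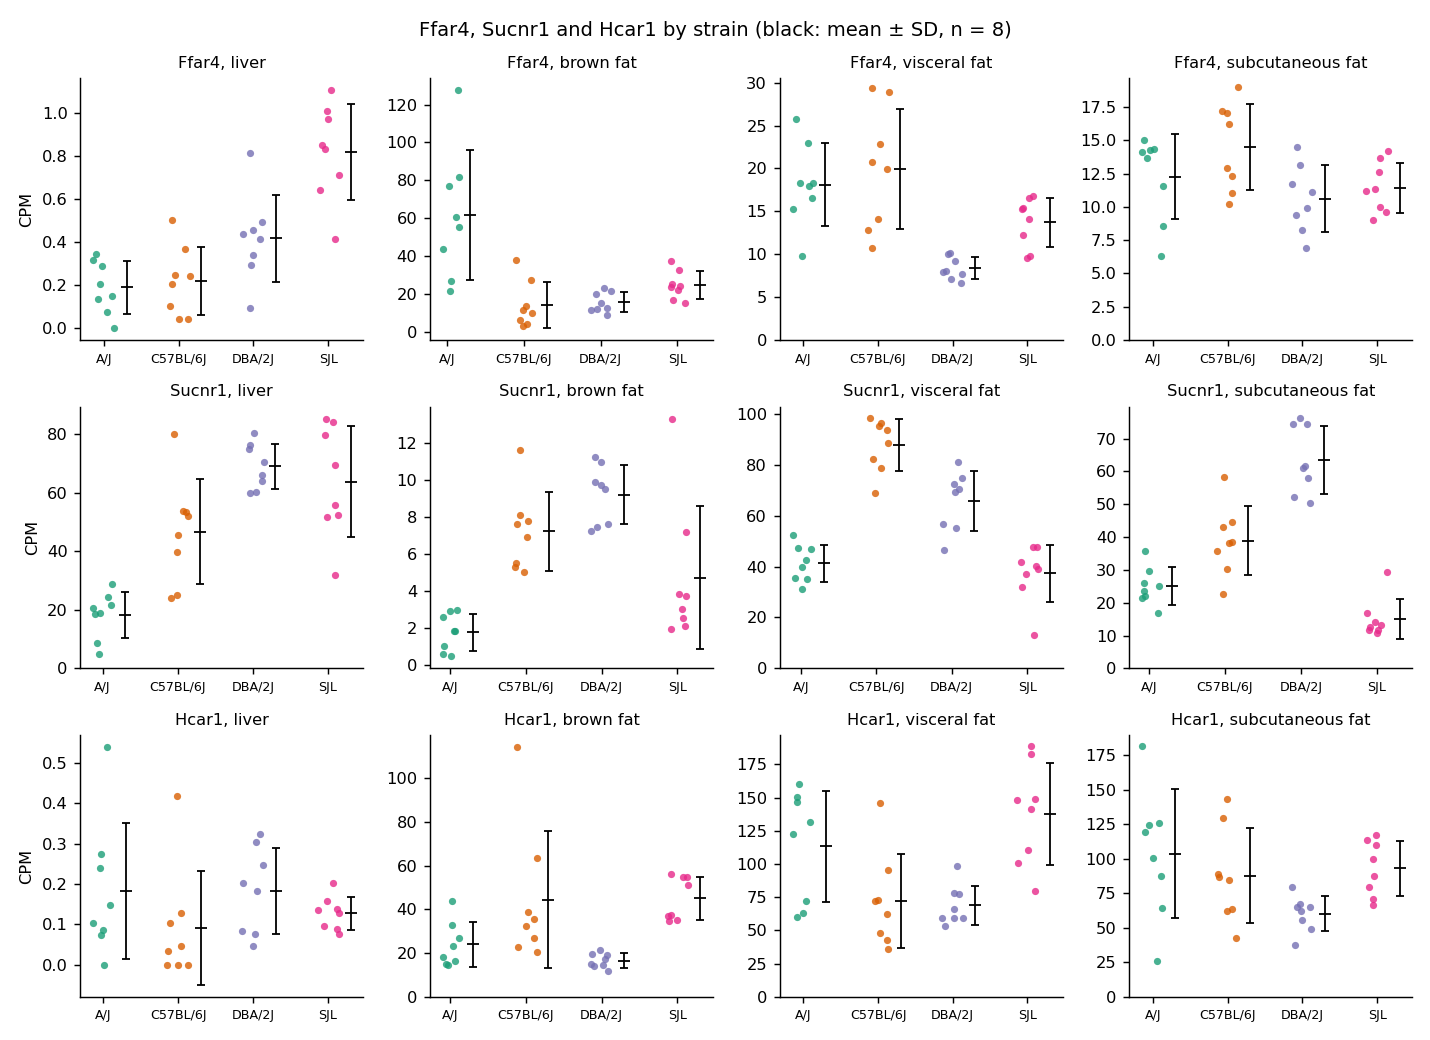
Levels of Ffar4, Sucnr1 and Hcar1 in CPM by strain in liver, brown, visceral and subcutaneous fat, 1 point per library, with the mean and SD of 8 libraries in black. In brown fat A/J has the highest Ffar4, with 21.3 to 128 CPM, and the lowest Sucnr1, with 0.441 to 2.94 CPM.

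Ffar4 (ENSMUSG00000054200, chromosome 19, 38085307 to 38105287, plus strand), the long-chain fatty acid receptor of adipocytes, shares 222 exonic bases with Rbp4 on the other strand. Its widest strain range was in brown fat. A/J brown fat had 21.3 to 128 CPM with a median of 57.7, against medians of 23.9 in SJL, 13.7 in DBA/2J and 10.6 in C57BL/6J. A/J overlapped with each of the other strains in its lowest libraries, since SJL reached 37.1, DBA/2J 23.2 and C57BL/6J 37.7 CPM. The log2 difference was 1.87 ± 0.25 in A/J (SE, adjusted p = 2.03e-06), -1.23 ± 0.30 in C57BL/6J (0.00257) and -0.77 ± 0.28 in DBA/2J (0.0353). The DBA/2J call was lost without any 1 of 9 libraries, with adjusted p up to 0.0835. These were C57BL/6J mouse 12, A/J mouse 18, SJL mouse 50 and DBA/2J mice 33, 38, 39, 42, 45 and 48. The call was also lost in 5 of 8 other settings, with adjusted p up to 0.106.
Marker sums of brown fat are set beside these values. The sum of 5 brown adipocyte markers had medians of 10689 CPM in A/J, 10351 in SJL, 9140 in DBA/2J and 6904 in C57BL/6J, and that of 13 general adipocyte markers 20635, 16016, 16658 and 20449 CPM in the same order of strains. The sum of 14 macrophage markers had medians of 218, 264, 482 and 290 CPM in that order. Their part in the strain differences of Ffar4 was not tested. The genes most like Ffar4 over the 32 brown libraries were St3gal5 (r = 0.908), which makes the ganglioside GM3, Dhrs11 (0.894) and Atg4d (0.894), an autophagy protease.

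In visceral fat the strains of Ffar4 took another order. DBA/2J had 6.64 to 10.1 CPM with a median of 7.99, below C57BL/6J with 10.8 to 29.4 CPM, and overlapping only at the edge with A/J (9.74 to 25.8) and SJL (9.53 to 16.8). The log2 difference was -1.03 ± 0.17 in DBA/2J (adjusted p = 3.18e-05), 0.64 ± 0.15 in C57BL/6J (0.00428) and 0.47 ± 0.15 in A/J (0.0397), and the A/J call was lost in 18 of 32 fits that each left out 1 library and without the doubtful libraries (0.16, adjusted p = 0.613). The visceral C57BL/6J call was lost with limma (0.39, adjusted p up to 0.192). By edgeR C57BL/6J was lower than the mean of the other strains in brown fat and higher than it in visceral fat. In liver Ffar4 had few counts, 12 to 30 in SJL against 0 to 8 in A/J, 1 to 11 in C57BL/6J and 2 to 20 in DBA/2J. Its log2 difference there was 1.65 ± 0.25 in SJL (5.72e-06) and -1.18 ± 0.34 in A/J (0.00887). A/J was thus above the mean of the other strains in brown fat and below it in liver. In liver A/J and C57BL/6J both had a median of 5 counts. In subcutaneous fat the strain means lay close together, at 14.5 ± 3.26 CPM in C57BL/6J, 12.2 ± 3.20 in A/J, 11.4 ± 1.89 in SJL and 10.6 ± 2.52 in DBA/2J.

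Whether strain differences changed between brown and visceral fat was tested directly for the 5 receptors measured in both. All 5 were called, where 24.9% of all genes were, with adjusted p of 0.000124 for Ffar4, 0.00178 for Hcar2, 0.00199 for Sucnr1, 0.00515 for Hcar1 and 0.0116 for Ffar2. Without the doubtful libraries, which removed 5 brown and 14 visceral ones, 2 of the 5 were called.

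Hcar1 and Hcar2 lie next to each other on chromosome 5, Hcar1 (ENSMUSG00000049241) at 124014799 to 124018083 and Hcar2 (ENSMUSG00000045502) at 124001633 to 124003562, both on the minus strand, with 11236 bases between them. Both are receptors of adipocytes that lower cyclic AMP. Their levels were alike across libraries: over the 32 subcutaneous libraries Hcar1 was the gene most like Hcar2, with r = 0.850, or 0.895 within strains, among 17613 genes. Acvr1c, an activin receptor of adipocytes, followed at 0.701. The bases before the Hcar1 start, which lie on the side of Hcar1 away from Hcar2, hold none of the 3 motifs. Hcar2 had no entry in the promoter table.
Hcar1, chr5:124018084-124018283, minus strand: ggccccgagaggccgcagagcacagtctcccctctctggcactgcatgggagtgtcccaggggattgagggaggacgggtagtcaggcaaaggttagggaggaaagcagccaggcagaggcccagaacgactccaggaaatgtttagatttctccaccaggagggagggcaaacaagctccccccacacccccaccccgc

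SJL was above and DBA/2J below the other strains in Hcar1, more firmly in brown than in visceral fat. In brown fat SJL had 34.7 to 56.2 CPM and DBA/2J 12.0 to 21.5 CPM, with no overlap, while C57BL/6J had 20.3 to 115 and A/J 14.6 to 43.9. The log2 difference was 0.85 ± 0.20 in SJL (adjusted p = 0.00229), -1.11 ± 0.23 in DBA/2J (0.000312) and 0.70 ± 0.21 in C57BL/6J (0.0125). The C57BL/6J call was lost without its mouse 13, the highest library at 115 CPM (log2 difference 0.40, adjusted p = 0.110), without its mouse 12, and with limma (0.43, adjusted p up to 0.0814). In visceral fat SJL had 80.0 to 189 CPM and DBA/2J 53.6 to 98.1 CPM, with log2 differences of 0.76 ± 0.20 (0.00697) and -0.61 ± 0.21 (0.0303). The visceral SJL call was lost with limma and without the doubtful libraries (adjusted p = 0.103). The visceral DBA/2J call was lost without any 1 of DBA/2J mice 33, 34, 39, 40 and 45, with no filter, and with limma, where the difference was -0.29 with adjusted p up to 0.368. The adipocyte marker sum in visceral fat also had its lowest median in DBA/2J, 30749 CPM, against 38880 in SJL, 37836 in C57BL/6J and 40743 in A/J, and its part in the result was not tested.

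Hcar2 was called in C57BL/6J, but in opposite directions in the 2 depots. In brown fat C57BL/6J averaged 9.39 ± 6.54 CPM, SJL 7.09 ± 2.27, A/J 4.58 ± 2.79 and DBA/2J 4.32 ± 1.37 (SD, n = 8 each), and the log2 difference of C57BL/6J was 0.83 ± 0.24 (SE, adjusted p = 0.0104). Without its mouse 13 it was 0.50 with adjusted p = 0.0961. In visceral fat C57BL/6J had the lowest mean, 15.9 ± 3.56 CPM, against 30.6 ± 8.72 in SJL, 24.4 ± 9.62 in A/J and 20.8 ± 2.28 in DBA/2J. There the log2 difference was -0.62 ± 0.16 in C57BL/6J (0.0101) and 0.61 ± 0.15 in SJL (0.00553). Without the doubtful libraries neither was called, and the C57BL/6J difference was -0.34 with adjusted p = 0.483. Hepatocyte markers were highest in visceral fat of C57BL/6J, with a median sum of 12007 CPM over 8 genes, against 7842 in SJL, 2987 in A/J and 3002 in DBA/2J, and their part was not tested.
In subcutaneous fat the Hcar2 means of the strains lay between 23.5 and 28.5 CPM. Those of Hcar1 were 104 ± 46.4 CPM in A/J, 93.0 ± 20.0 in SJL, 87.7 ± 34.1 in C57BL/6J and 60.0 ± 12.6 in DBA/2J. DBA/2J again had the lowest mean of Hcar1, with ranges that overlapped.

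Ffar2 (ENSMUSG00000051314, chromosome 7, 30517773 to 30536075, minus strand) lies in the same cluster as Ffar1 but did not share its strain pattern. In subcutaneous fat it averaged 77.2 ± 13.4 CPM in DBA/2J, 115 ± 34.0 in A/J, 90.5 ± 21.9 in C57BL/6J and 57.3 ± 8.35 in SJL, so that DBA/2J lay within the range of the others. Ffar3, which lies between them, had means of at most 0.150 TPM in any of the 4 tissues and 0 or 1 count in each DBA/2J subcutaneous library. In brown fat Ffar2 was lower in A/J, at 3.19 ± 1.25 CPM, against 5.52 ± 1.88 in C57BL/6J, 5.45 ± 1.48 in SJL and 4.89 ± 3.71 in DBA/2J, a log2 difference of -0.71 ± 0.22 (adjusted p = 0.0143). In liver it was higher in DBA/2J, with 3 to 19 counts, against 0 to 10 in A/J, 1 to 21 in C57BL/6J and 1 to 15 in SJL, a log2 difference of 1.28 ± 0.36 (0.00816). These liver counts are few, and the ranges overlap. The genes most like Ffar2 over the 32 subcutaneous libraries were Lamb1 (r = 0.891), a laminin chain of basement membranes, Edn1 (0.889), the vasoconstrictor endothelin 1, and Tmcc3 (0.874).

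Gpr84 (ENSMUSG00000063234, chromosome 15, 103216662 to 103219039, minus strand) shares 681 exonic bases with Gm49482 on the other strand, and 53 of its 128 values were fractional, so its level is less certain than those of the others. In liver A/J had 20 to 61.5 counts, against 6.5 to 27.5 in C57BL/6J, 12 to 36.5 in DBA/2J and 12.5 to 35 in SJL. The log2 difference was 0.88 ± 0.16 in A/J (adjusted p = 0.000106) and -0.93 ± 0.20 in C57BL/6J (0.000481). The sum of 13 adipocyte markers in liver had medians of 2599 CPM in A/J, 1722 in C57BL/6J, 1727 in DBA/2J and 1164 in SJL. Plin1 and Cidec of that list averaged 1.71 and 6.88 CPM in liver, so the sum rests on other members and does not measure adipocytes. Neither the part of this sum nor that of the macrophage sum given above was tested. In subcutaneous fat Gpr84 averaged at most 0.393 CPM in any strain. The genes most like it in liver were Srd5a2 (r = 0.779), Hsd17b7 (0.774) and Aagab (0.773), with correlations within strains of 0.398, 0.490 and 0.233.

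Ffar1 was called over strains in visceral fat (adjusted p = 0.0250), with a log2 difference of 2.21 ± 0.64 in SJL (0.0136), but this rested on SJL mouse 50. The gene reached 10 counts in 4 visceral libraries, 3 of them SJL, so it passed the filter mainly through the strain in which it was high. Without that library the difference was 0.80 with adjusted p = 0.437, and without the doubtful libraries it was -0.24. Apart from mouse 50, SJL visceral fat had 0 to 15 counts.

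The 7 receptors were next compared over diets. In these tests 0 of 6 receptors were called in liver, where 0.102% of all genes were called, 0 of 7 in visceral fat and 0 of 7 in subcutaneous fat, where 0% were called in both. At an unadjusted p under 0.05, edgeR and DESeq2 each counted 1 receptor in liver, Sucnr1, and 1 in visceral fat, Ffar1, and neither counted any in subcutaneous fat; limma on log2(TPM + 1) counted Sucnr1 in liver and none in the white depots. Sucnr1 in liver averaged 45.3 ± 21.3 CPM on the Mediterranean, 48.1 ± 24.8 on the vegetarian, 42.3 ± 23.2 on the vegan and 62.0 ± 26.9 on the American diet. The vegan difference from American was -0.69 ± 0.23 on the log2 scale and did not pass (adjusted p = 0.236), and the ranges of the diets overlapped.

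In brown fat 1 of 6 receptors was called over diets, Ffar1 with adjusted p = 0.0432, where 0.416% of all genes were called. Each diet had 4 of 8 libraries with 0 counts, and the highest libraries had 0.0471 CPM on the Mediterranean, 0.207 on the vegetarian, 0.244 on the vegan and 1.62 on the American diet. The 3 highest were the American libraries named above as rich in Cd79a, with 40, 22 and 12 counts. No other brown fat library reached 10 counts, so Ffar1 passed the filter on low counts only through the diet in which it was high, and the call carries no weight as a test of diet. Log2 differences from American were -3.74 ± 0.93 on the Mediterranean diet (adjusted p = 0.0658), -2.98 ± 0.85 on the vegetarian (0.0947) and -2.37 ± 0.78 on the vegan (0.134), so none passed alone, where 0.104%, 0.267% and 0.0148% of all genes were called. No other receptor was called on a single diet in any tissue; the share of all genes called in liver was 0.145% on the Mediterranean, 0% on the vegetarian and 0.113% on the vegan diet, and 0% on each in both white depots. The summed B cell markers of brown fat were 1.67 to 11.2 CPM on the Mediterranean, 2.50 to 7.40 on the vegetarian, 1.93 to 31.2 on the vegan and 2.66 to 120 on the American diet. Without the 3 libraries Ffar1 was not called, nor with DESeq2, and for limma it was too low to be tested. The call was also lost when any 1 of 23 of the 32 libraries was left out. At an unadjusted p under 0.05 edgeR counted 4 receptors in brown fat (Sucnr1, Ffar1, Ffar2 and Ffar4), DESeq2 6 and limma 2.
Ffar4 in brown fat had medians of 32.1 CPM on the Mediterranean (21.3 to 60.4), 15.1 on the vegetarian (2.98 to 43.7), 18.4 on the vegan (up to 128) and 17.4 on the American diet (4.26 to 77.0), with ranges that overlapped. The Mediterranean difference from American was 1.04 ± 0.34 and did not pass (adjusted p = 0.170).

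**Figure D5:**
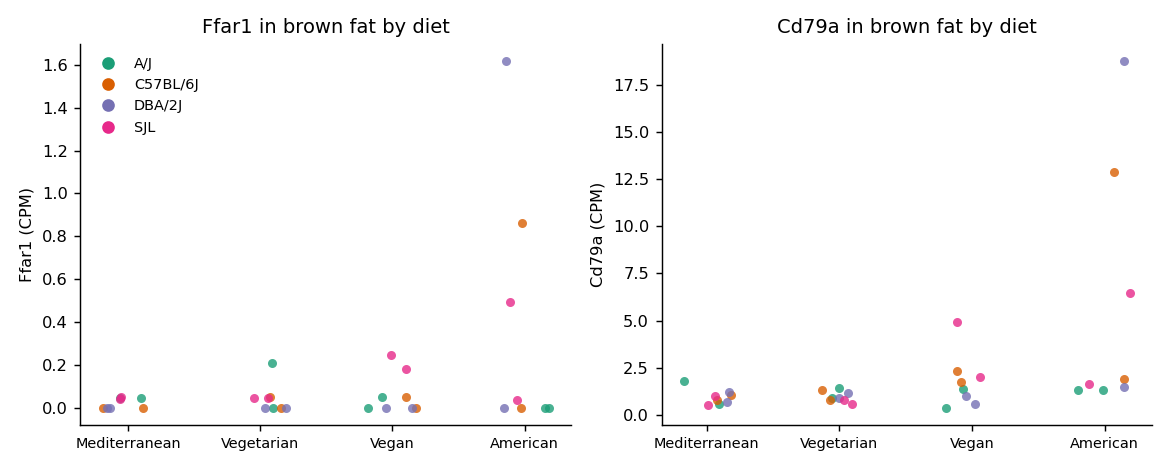
Ffar1 (left) and Cd79a (right) in CPM in brown fat by diet, 1 point per library coloured by strain. The same 3 American libraries stand above the others in both panels, with Cd79a at 6.45 to 18.8 CPM.

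Strain by diet interactions were not called for any receptor by edgeR or limma, with 0.392% of all genes called in visceral fat, 0.0099% in brown fat and 0% in liver and subcutaneous fat. By edgeR at an unadjusted p under 0.05 there were 2 receptors in visceral fat (Hcar2 and Ffar2), 2 in subcutaneous fat (Hcar1 and Gpr84) and 0 in liver and brown fat.

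Other genes of the receptors' surroundings were counted from 4 lists. Among 10 further metabolite receptors and carriers 5 were tested in each tissue, of which 4 were called over strains in liver, 4 in brown fat and 3 in visceral fat. Of 12 genes of lipolysis, the process that Hcar1 and Hcar2 restrain, 5 of 11 tested were called in liver, 7 of 11 in brown fat and 6 of 12 in visceral fat. Of 26 genes of G protein signalling 11 were called in liver, 17 in brown fat and 7 in visceral fat. Of 21 genes that make, use or carry the ligands lactate, succinate, ketone bodies and short-chain acids 13 of 21 were called in liver, 12 of 20 in brown fat and 3 of 21 in visceral fat. Of these 12 shares 8 lay above the share of all genes called in the same tissue and 4 below it.
By direction, DBA/2J visceral fat, in which Ffar4 was below the other strains, had 1 lipolysis gene higher and 3 lower of 12, where 29.2% of all genes were called. Adrb3, the beta-adrenergic receptor that starts lipolysis in fat, had a log2 difference of -1.79 ± 0.21 (adjusted p = 2.11e-07), and Pnpla2, the first lipase of the pathway, -0.52 ± 0.15 (0.00966). The list's median difference was -0.20, against -0.05 for all genes. A/J brown fat, in which Ffar4 was above the other strains, had 2 lipolysis genes higher and 0 lower of 11, where 35.8% of all genes were called, namely Aqp7, the glycerol channel (0.23 ± 0.08, 0.0205), and G0s2, an inhibitor of the lipase (0.62 ± 0.21, 0.0228). A/J liver, in which Sucnr1 was below the other strains, had 7 of 21 ligand genes higher and 0 lower, where 28.5% of all genes were called. They included Suclg2, a subunit of the enzyme that makes succinate (0.35 ± 0.06, 1.08e-05), and Bdh1, which makes beta-hydroxybutyrate (0.40 ± 0.06, 8.57e-06).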

How the data were processed

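Whole-tissue RNA sequencing of liver, brown, visceral and subcutaneous fat was analysed, 128 libraries from 35 mice; muscle was not used here. Per the submitters' processing notes the authors used FastQC, Trim Galore, HISAT2 and HTSeq with GRCm39; their versions, the annotation release and any strand option were not given in the sources used here. Per the series' design text, HISAT2 ran with a relaxed mismatch penalty for strains other than C57BL/6J, and HTSeq counted with fractional alignment. The deposited values are estimated counts per gene, of which 74.4% of the non-zero ones were whole within 1e-06, and TPM computed by the authors.

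Estimated counts were rounded and tested in edgeR 4.0.16 (R 4.3.3) by the quasi-likelihood test with TMM scaling, filterByExpr (minimum count 10, total 15) and Benjamini-Hochberg adjustment over all genes kept, with a call at adjusted p under 0.05. Strain and diet were additive factors within a tissue, and a model with interaction tested strain by diet. Levels in CPM use TMM-scaled totals, except those of Ucp1, Cd79a, Hoxc10 and the liver transcripts that mark doubtful libraries, which use plain totals. Alternatives were RLE size factors, DESeq2 1.42.0, limma 3.58.1 on log2(TPM + 1) and log2(TPM + 0.1) over genes averaging 1 TPM or more, no filter, averaging over the 16 combinations of strain and diet, leaving out doubtful or B cell-rich libraries, leaving out each library, and the mouse as a block between tissues. The statistics were tested on simulated data. Mouse numbers pair the tissues, since they name the same animal; deviations of the same mouse correlated between tissues with medians of -0.04 to 0.10.

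The 7 receptors and the gene lists were chosen with earlier results of these data known. Named beside them are Ffar1's neighbours, the 3 genes most correlated with each receptor on log2 CPM in its highest tissue (mean of at least 1 CPM, 32 libraries), 2 genes with the smallest adjusted p of a list described, and genes checking the tissues.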

Additional observations from a re-analysis of the deposited data

Results flagged for a closer look

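Of 69 groups of 8 libraries with a mean of at least 1 CPM, 10 held a library whose gap to the next was large for the group's range. The rule is set to flag about 1 in 20 groups of independent, normally spread values. CPM need not be spread so and the groups share libraries, so an excess over chance is not shown. Values are CPM.

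SJL mouse 50 in visceral fat was highest in Ffar1, at 7.99 with the next at 0.625, and lowest in Sucnr1, at 13.2 with the next at 31.8. This library lacked the mesothelial gene Wt1 and had Hoxc10 at 16.3, near the subcutaneous mean of 16.1. C57BL/6J mouse 13, on the vegan diet, was highest in Hcar1 in brown fat (114.6, next 63.4) and in Hcar2 in brown fat (24.2, next 12.2) and subcutaneous fat (58.6, next 34.7). The library labelled DBA/2J mouse 33 was highest in Ffar2 in brown fat, at 13.7 with the next at 5.0, and is the DBA/2J brown fat library with 40 counts of Ffar1.

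A/J mouse 18 was highest in Hcar2 in brown fat, at 10.6 with the next at 5.84. Sucnr1 was highest in brown fat of C57BL/6J mouse 2 (11.6, next 8.12), in brown fat of SJL mouse 57 (13.3, next 7.21) and in subcutaneous fat of SJL mouse 64 (29.3, next 16.8). The 2 SJL libraries were doubtful, with the liver gene Alb at 14.8% and 26.5% of its liver level. SJL livers averaged 63.8 of Sucnr1, and the part of liver RNA in the 2 values was not tested.

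The strain differences themselves differed between brown and visceral fat for 5 receptors, with adjusted p of 0.0116 for Ffar2, 0.000124 for Ffar4, 0.00515 for Hcar1, 0.00178 for Hcar2 and 0.00199 for Sucnr1 (edgeR).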

How the results depend on the processing

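Of 437 values of 64 calls under other settings, 398 kept direction and call, 36 lost the call and 3 reversed; 48 calls were never lost. DESeq2 and RLE size factors lost 0 of 64 calls, limma 13 of 57 with either pseudocount, no filter 4 of 64, and leaving out doubtful libraries 7 of 56. Reversed were Sucnr1 in liver against visceral fat under limma (-0.65 with a pseudocount of 1, -0.66 with 0.1) and Ffar1 of SJL visceral fat without doubtful libraries (-0.24). Without doubtful libraries the receptors called over strains in visceral fat numbered 3 in place of 5, and those called for strain by depot 2 in place of 5. Under limma those called over strains in liver numbered 2 in place of 4, where fewer genes were tested, and in visceral against subcutaneous fat 2 in place of 4. The brown fat call over diets became 0 with no filter, DESeq2, limma with either pseudocount, the 16-combination model and without B cell-rich libraries. The cause of these changes was not tested.

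Leaving out each library gave 4 to 6 receptors over strains in brown fat, 4 to 6 in visceral fat, 3 to 5 in liver, and 0 to 1 over diets in brown fat; over diets in the other tissues the count stayed at 0. Strain by diet was not run with libraries left out. Of 31 calls 24 were never lost. With the mouse as a replicate block the counts were 6 for brown against subcutaneous, 4 for visceral against subcutaneous, 5 for brown against visceral fat, 6 for each liver pair and 5 for strain by depot, so the pairing changed no call.

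Ffar1 outside subcutaneous fat, and Ffar2, Ffar4, Hcar1 and Hcar2 in liver, rest on few counts, which limits what is detectable there at this depth.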

Other observations

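Among other receptors for metabolites, Gpr132, a receptor for lactate and oxidised fatty acids on leukocytes, averaged 36.1 ± 17.9 TPM in subcutaneous fat and 6.95 ± 9.87 in visceral fat (SD, n = 32 each). In brown fat of A/J mice its log2 difference from the other strains was -1.39 ± 0.40 (adjusted p = 0.00719, edgeR's quasi-likelihood test). Gpr35, a receptor for kynurenic acid, differed by 1.08 ± 0.16 in DBA/2J visceral fat and by -0.85 ± 0.26 in A/J brown fat, and was called in both. Cd36, a carrier of long-chain fatty acids rather than a G protein-coupled receptor, averaged 33.5 ± 21.5 TPM in liver and was lower in A/J livers by a log2 difference of -0.40. Pnpla2, the first lipase of lipolysis, was called over diets in liver (adjusted p = 0.0222), with a log2 difference of 0.51 ± 0.10 on the Mediterranean diet relative to American (adjusted p = 0.0364).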
